A study of Mus musculus with 5 samples.

Results

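Epithelial keratins were followed in kidney tubule cells through obstruction and release. The 6 genes are Krt5, Krt7 and Krt8, which encode type II keratins, and Krt18, Krt19 and Krt20, which encode type I keratins. They were taken by symbol from the gene lists of the count matrices, 6 of 28692 gene identifiers, each with a single row, and raw unique molecular identifier (UMI) counts were summed in cells gated by tubule markers. Keratins gated no cell.

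The samples were kidneys of C57/BL6 mice aged 8 weeks whose ureter had been blocked on one side and, in one group, reopened (reversible unilateral ureteric obstruction, UUO). Droplet 3′ libraries, 4 in all, came from sham-operated mice (day 0), mice obstructed for 2 or 7 days (UUO day 2 and UUO day 7), and a reversed group taken 7 days after release (experimental day 14). Each group was a single library pooled from 3 mice, so no test between groups was possible. Cold-digested kidneys were sorted for live cells by DAPI exclusion, with no further selection in the labels and no transgene or mutation named. The question addressed was how these genes behaved in each tubule segment during obstruction and after release.

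Keratins are the intermediate filament proteins of epithelia and assemble only as pairs of a type II with a type I chain. Simple epithelia use mainly Krt8 with Krt18, often joined by Krt7 and Krt19, whereas Krt5 marks basal cells of stratified epithelia and Krt20 marks some differentiated epithelia, among them superficial urothelium. In kidney, keratins are known for their presence in collecting duct and other distal epithelia and for their appearance in injured tubules.

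After filtering, 3746 sham, 2159 day 2, 4287 day 7 and 3140 reversed cells remained, with median depths of 2656.5 to 6566 UMIs per cell. Gated tubule cells numbered 3282, 1217, 853 and 1675. The sham library stood apart in its mitochondrial share, a median of 33.6% of UMIs against 9.89%, 2.96% and 8.29% in the others. Between 9 and 23 barcodes were shared by any pair of libraries. Levels are counts per 1000000 UMIs of the class (CPM) with exact 95% Poisson intervals, ratios are log2 of (CPM + 1) with exact conditional binomial intervals, and all intervals cover counting error only. A value is called past 2-fold where its log2 ratio is at least 1 in size.

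The cells were gated on panel markers, so the shares of cells with those markers only describe the gates. Slc34a1, a phosphate transporter of proximal tubule, was found in 98.8% of sham proximal tubule cells, and Umod, made by the thick ascending limb, in 99.2% to 99.6% of cells of that gate. Aqp2, the water channel of principal cells, was found in 97.0% of sham and 100% of day 2 cells gated as collecting duct principal, but in 65.4% on day 7 and 66.2% in the reversed library. Hsd11b2, a steroid-inactivating enzyme of principal cells, was still found in 95.8% to 97.5% of them. The thin limb gate was small (46, 64, 40 and 30 cells). Among its markers Cryab was found in 100% of its cells in every library and Bst1 in 80% to 92.2%, while Corin was found in 17.4% of sham and 5% of day 7 cells and Slc14a2 in 15.2% of sham, 68.8% of day 2 and 37.5% of day 7 cells. In the distal convoluted tubule gate Slc12a3, the thiazide-sensitive salt transporter, was found in 90.9% to 100% of cells, while Pvalb was found in 62.5% of sham, 7.69% of day 2, 3.03% of day 7 and 43.2% of reversed cells. Only 26 day 2 cells were gated as distal convoluted tubule, so that segment was not compared with day 2.

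Krt8 and Krt18 lie next to each other on mouse chromosome 15 (GRCm38), with 23698 bases between their gene bodies, and Krt7 and Krt5 lie on the same chromosome. Krt19 and Krt20 lie on chromosome 11. RefSeq promoter windows (GRCm38.p6, 250 bases before to 50 after the gene start) were matched for 5 of the 6 genes, all but Krt19. The windows of Krt8, Krt18 and Krt7 are shown because Krt8 and Krt18 encode partner chains and were both higher on day 2 than in sham in distal segments, whereas Krt7 was already high in sham. Krt8 is from chr15:102004293-102004592, minus strand, Krt18 from chr15:102027966-102028265, plus strand, and Krt7 from chr15:101412153-101412452, plus strand. The Krt7 window lies inside the gene body of the GENCODE annotation, which starts at 101411043, so the annotated starts of RefSeq and GENCODE differ for this gene. They also differ for Krt8, whose GENCODE start on the minus strand is 102004482, so that part of its window lies in that gene body, and its TATAAA letters begin at position -1 relative to the RefSeq start. Capitals mark TATAAA read on either strand, which in Krt8 gives overlapping matches.
Krt8: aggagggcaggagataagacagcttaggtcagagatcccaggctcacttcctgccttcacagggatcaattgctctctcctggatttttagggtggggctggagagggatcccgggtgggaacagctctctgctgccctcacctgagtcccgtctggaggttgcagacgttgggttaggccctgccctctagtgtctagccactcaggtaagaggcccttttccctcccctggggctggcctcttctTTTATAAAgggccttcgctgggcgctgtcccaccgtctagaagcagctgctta
Krt18: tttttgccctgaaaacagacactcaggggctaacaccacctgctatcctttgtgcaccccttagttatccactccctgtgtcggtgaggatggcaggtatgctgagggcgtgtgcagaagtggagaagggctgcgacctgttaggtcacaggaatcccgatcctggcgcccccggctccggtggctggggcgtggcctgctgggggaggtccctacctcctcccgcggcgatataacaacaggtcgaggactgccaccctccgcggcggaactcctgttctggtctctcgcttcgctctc
Krt7: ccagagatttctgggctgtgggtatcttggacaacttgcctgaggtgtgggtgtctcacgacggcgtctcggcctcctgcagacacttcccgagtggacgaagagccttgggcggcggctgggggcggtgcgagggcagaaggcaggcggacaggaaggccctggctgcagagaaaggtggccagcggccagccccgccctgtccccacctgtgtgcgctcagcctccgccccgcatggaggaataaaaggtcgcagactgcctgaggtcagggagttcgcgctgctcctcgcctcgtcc
The letters TATAAA were found in the windows of Krt8 and Krt20 and not in those of Krt18, Krt7 and Krt5, and 13.6% of 32851 promoter windows hold them. GGGCGG was found in the Krt7 window alone of the 5, against 35.7% of all windows. TGANTCA (7.81% of all windows) and CCAAT (37.4%) were found in none of the 5. All motifs were read on both strands, and a match is a description of letters.

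In sham kidneys Krt7, Krt18 and Krt8 were arranged along the nephron in different ways. Krt7 was highest in collecting duct principal cells (448 CPM, 381 to 523) and intercalated cells (443, 377 to 518), whose intervals overlapped. It was lower in thick ascending limb (159 CPM), thin limb (109.9) and distal convoluted tubule (102), and 5.32 CPM in proximal tubule. Krt18 was highest in thin limb (201 CPM, 145 to 271) and principal cells (166, 127 to 214), then intercalated cells (79.1), with 5.66 CPM in thick ascending limb and 2.13 in proximal tubule. Krt8 followed a flatter order, from 172 CPM in thin limb and 116 in principal cells to 65.0 in intercalated cells, 36.8 in thick ascending limb, 32.2 in proximal tubule and 25.6 (3 UMIs) in distal convoluted tubule, each overlapping its neighbour in that order. CPM totals include mitochondrial UMIs, whose median share in sham was 5.22% in thin limb and from 26.0% (intercalated) to 40.6% (distal convoluted tubule) in the other segments. The part of this difference in the order of segments was not tested. Krt19 had 6 UMIs in all 3282 sham tubule cells, Krt20 had 2 and Krt5 had 0.

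Sham proximal tubule held Krt8 almost without Krt18, with 303 UMIs of the former and 20 of the latter, and thick ascending limb had 26 and 4. Leukocytes, which should lack keratins, gave a background level. It was 6.25 CPM for Krt8 and 3.12 for Krt7 in sham, from 2 and 1 UMIs, with 0 UMIs of Krt18. The share of cells with a Krt8 UMI was 9.57% in sham proximal tubule (2.80% after thinning each cell to 1000 UMIs) and 2.13% in sham leukocytes (1.06% thinned), at median depths of 2638 and 2727.5 UMIs. Proximal tubule Krt8 therefore stood above the leukocyte level, whereas Krt7 in that segment did not: 5.32, 11.3, 14.1 and 9.62 CPM in sham, day 2, day 7 and reversed, against 3.12, 9.86, 15.5 and 14.0 in leukocytes.

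**Figure D1:**
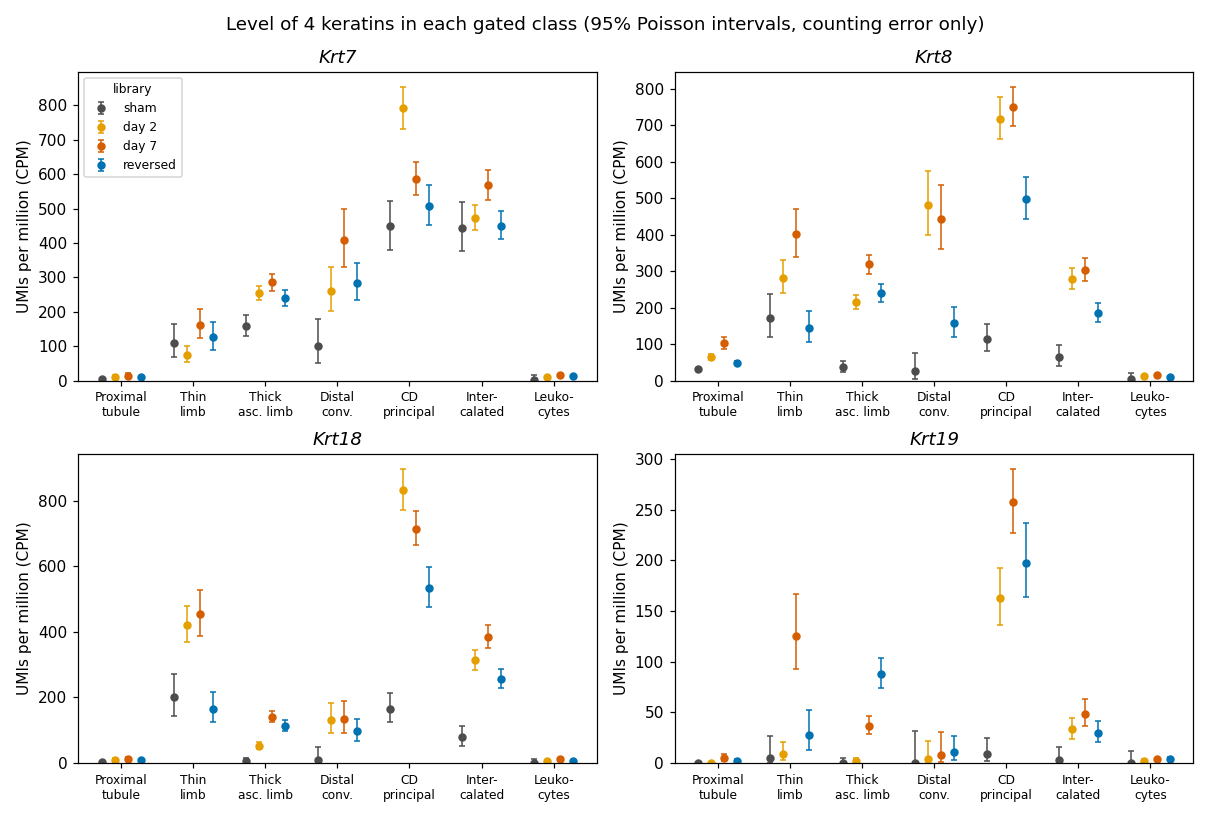
Level of Krt7, Krt8, Krt18 and Krt19 (vertical axes, CPM) in 6 gated tubule segments and in leukocytes, for the sham, day 2, day 7 and reversed libraries; points are sums over all cells of the class and bars are 95% Poisson intervals. Krt8 and Krt18 in principal cells were at 116 and 166 CPM in sham and at 718 and 832 on day 2, while Krt7 was already at 448 in sham.

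On day 2 of obstruction Krt8, Krt18 and Krt19 were higher than in sham in the distal segments, by more than Krt7 was. Over all gated tubule cells, 4 of the 6 keratins were higher by 2-fold or more on day 2 than in sham, where 16.9% of all genes with a UMI were. Within segments, 12 of the 21 keratin by segment pairs with a UMI in either library (30 in all) were higher and 0 lower, against 18.7% higher and 10.4% lower over all gene by segment pairs with a UMI. Later shares of pairs have the same base. These 12 were Krt18 in all 5 segments compared, Krt8 and Krt19 in thick ascending limb, principal and intercalated cells, and Krt20 in proximal tubule. Krt7 was in none of the 12. Of these, Krt18 in proximal tubule (10.1 CPM on day 2) and Krt19 in thick ascending limb (2.08, 5 UMIs) had day 2 intervals that overlapped those of leukocytes (7.43 and 2.12), and Krt20 in proximal tubule rested on 7 UMIs.

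Krt8, the type II partner of simple epithelia, had principal cell levels of 116 (sham), 718 (day 2), 751 (day 7) and 497 CPM (reversed). It was thus several times the sham level in every obstructed or released library, and the day 2 and day 7 intervals (661 to 778 and 699 to 806) overlapped. The log2 ratio of day 2 to sham was 2.63 (2.17 to 3.11). In that gate the summed leukocyte panel was at 59.2, 471, 1855 and 711 CPM in the same order. The proximal tubule panel was at 1057, 105, 64.6 and 496 CPM, and the distal convoluted tubule panel at 2353, 344, 346 and 1716. The part of any of these panels, or of the mix of cells in the gate, in the keratin levels was not tested. In intercalated cells, the acid-base cells of the collecting duct, Krt8 was at 65.0, 278, 305 and 185 CPM in the same order, a day 2 log2 ratio of 2.08 (1.48 to 2.74). The thick ascending limb gate had 36.8, 215, 319 and 239.7 CPM, a day 2 log2 ratio of 2.51 (1.96 to 3.12).

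Krt18, the type I partner of Krt8, was also higher on day 2 than in sham in these segments. Principal cells had 166, 832, 715 and 535 CPM, with a day 2 log2 ratio of 2.32 (1.93 to 2.72). Intercalated cells had 79.1, 314, 384 and 256 CPM (day 2 log2 ratio 1.98, 1.43 to 2.57). In thick ascending limb, where sham held only 4 UMIs, the values were 5.66, 52.9, 142 and 113 CPM, a day 2 log2 ratio of 3.02 (1.76 to 4.43). With sham cells over 20% mitochondrial UMIs left out, 18 sham cells of that segment remained and the ratio was 0.75, under 2-fold. With every cell, but mitochondrial UMIs left out of the total, it was 2.81. The part of the sham mitochondrial share in these ratios was not tested further.

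Krt19, a type I keratin that lacks most of the tail domain, was nearly absent in sham, and in each later library its level was highest in principal cells, with intervals apart from the next segment. Their values were 8.45, 163, 257 and 198 CPM, with all 3 sham UMIs in 1 cell. The day 2 log2 ratio was 4.12 (2.64 to 5.92). Cells of that gate with a Krt19 UMI made up 1.49%, 51.2%, 42.3% and 35.2% (0%, 17.5%, 13.1% and 9.86% after thinning), against at most 2.32% of leukocytes in any library. Median depths were 9320.5 UMIs in day 2 principal cells and 8812 in day 2 leukocytes. Intercalated cells held less Krt19, at 2.82, 33.2, 48.5 and 29.8 CPM.

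Summed over each gate, Krt7 changed little by comparison. In intercalated cells it was at 443, 473, 567 and 450.3 CPM, and its day 2 log2 ratio of 0.09 (-0.16 to 0.35) did not differ from 0 beyond counting error. In principal cells it went from 448 to 791 CPM on day 2 and then to 586 and 508, so that the day 2 library was the highest and the reversed library overlapped sham. Levels in thick ascending limb were 159, 254, 286 and 239.1 CPM (day 2 log2 ratio 0.68, 0.38 to 0.98). Over all gated tubule cells Krt7 was at 45.95 CPM in sham and 240.9 on day 2, a log2 ratio of 2.37, larger than in any of the 5 segments compared. The mix of segments differed, since proximal tubule made up 2895 of 3282 gated cells in sham and 598 of 1217 on day 2. With sham and later cells over 20% mitochondrial UMIs left out, the intercalated value was -0.66 and that of thick ascending limb 1.08, and with every cell thinned to 1000 UMIs the intercalated value was 0.94.

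The intercalated gate held cell kinds that differed in Krt7. In sham, cells with more UMIs of Slc26a4, the pendrin exchanger of type B cells, than of Slc4a1, the exchanger of type A cells, had 567 CPM of Krt7 (478 to 667, 27 cells). Cells with more Slc4a1 had 122 CPM (60.9 to 218, 15 cells). The order was the same on day 2 (478 against 335), day 7 (603 against 322) and after reversal (565 against 303). Between sham and day 2 the value thus went from 122 to 335 CPM in cells with more Slc4a1. In cells with more Slc26a4 it went from 567 to 478. The summed Krt7 level of the gate covers both kinds, and the part of their mix in it was not tested. Krt18 showed that order with intervals apart only on day 2 (359 against 229 CPM), and after reversal it was 195 against 199. Cells with equal counts or none numbered 3 in sham and 57 on day 7, so this split covers fewer of the day 7 cells.

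**Figure D2:**
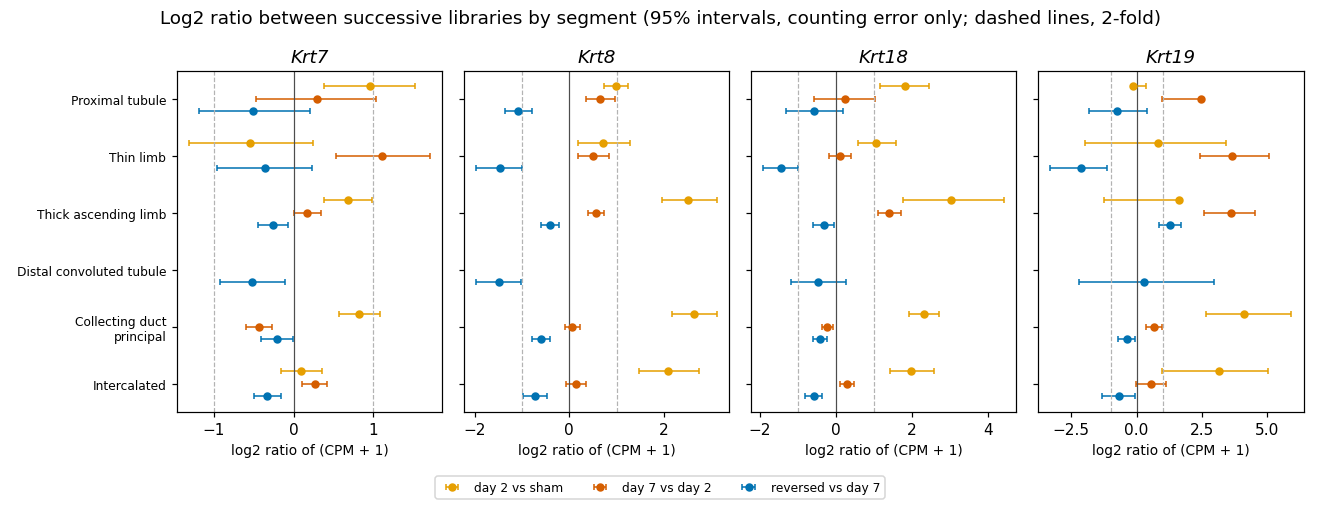
Log2 ratio of (CPM + 1) on the horizontal axes for 4 keratins in each segment, day 2 over sham, day 7 over day 2, and reversed over day 7; bars are 95% intervals for counting error and end at the point where the earlier library had 0 UMIs. The day 2 over sham points of Krt8 in principal cells (2.63), thick ascending limb (2.51) and intercalated cells (2.08) lie to the right of the 2-fold line, while Krt7 in intercalated cells is at 0.09 in that comparison.

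On day 7 the keratins that stood above their day 2 levels did so mainly outside the collecting duct. Over all gated tubule cells Krt19, Krt20 and Krt5 were higher by 2-fold or more, 3 of 6, against 6.43% of genes, and 9 of 24 pairs with a UMI were higher against 14.7% of such pairs of all genes. Only 4 of those 9 pairs had 30 or more summed UMIs: Krt7 and Krt19 in thin limb, and Krt18 and Krt19 in thick ascending limb. Without the cell holding most UMIs of each keratin in each class, an alternative chosen after seeing the data, 5 pairs remained past 2-fold.

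In principal cells 3 of the 4 abundant keratins were no higher on day 7 than on day 2 beyond counting error, and Krt19 was higher. Krt8 had a log2 ratio of 0.06 (-0.09 to 0.22), Krt18 of -0.22 (-0.37 to -0.07) and Krt7 of -0.43 (-0.59 to -0.27), with Krt19 at 0.66 (0.35 to 0.97). Of the 263 Krt19 UMIs on day 7, 46 were in 1 cell that also held Krt5, and 6 of 130 cells held at least 50%. The Krt19 ratio without that cell is not given. The ratio in thick ascending limb was 1.40 (1.10 to 1.71) for Krt18 and 0.57 (0.39 to 0.74), under 2-fold, for Krt8. Krt19 had 5 UMIs there on day 2 (2.08 CPM) and 68 on day 7 (36.3 CPM), found in 12% of day 7 cells against 2.32% of leukocytes. Median depths of these cells were 9222 and 5850 UMIs, and the thinned shares were 2.09% and 0.488%.

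The thin limb gate had its highest Krt8 and Krt19 levels on day 7, although few cells carried them. Krt8 was at 172, 282, 401 and 144 CPM, Krt18 at 201, 420.4, 453 and 166, and Krt19 at 4.78, 9.10, 126 and 27.7. For Krt18 the day 2 (368 to 478) and day 7 (388 to 526) intervals overlapped. On day 7, 1 cell held 21 of the 48 Krt19 UMIs, and without it the level was 70.8 CPM. The largest single-cell counts of Krt8 and Krt18 in that library's gate were 38 of 153 and 44 of 173 UMIs. Levels without those counts are not given, so the order of day 2 and day 7 may rest on them. In the reversed thin limb gate Vim, the filament gene of mesenchymal cells, had 256 UMIs in 30 cells (787 CPM), against 39.3 CPM on day 7 and 0 UMIs in sham, so these cells differed in more than keratins, and whether the gate held the same cells was not tested.

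Distal convoluted tubule cells were compared between sham, day 7 and reversed. Krt8 was at 25.6 CPM in 32 sham cells from 3 UMIs, 442 on day 7 and 158 after reversal, a day 7 to sham log2 ratio of 4.06 (2.51 to 6.17). Krt7 was at 102, 409 and 284 CPM and its day 7 to sham log2 ratio was 1.99 (1.12 to 2.98), which was the only distal segment in which Krt7 passed 2-fold. When cells over 20% mitochondrial UMIs were left out, 2 sham cells of this segment remained, too few to give these ratios.

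Against sham, day 7 had 6 of 6 keratins higher by 2-fold over all gated tubule cells, where 32% of genes were, and 24 of 28 pairs with a UMI, where 29% of such pairs of all genes were. These comparisons share the sham library with those of day 2.

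The day 7 proximal tubule had more Krt8, without a like amount of Krt18. Krt8 levels were 32.2, 65.1, 103 and 48.6 CPM in sham, day 2, day 7 and reversed. The day 2 log2 ratio was 0.99 (0.74 to 1.24), just under 2-fold, and the day 7 to sham value was 1.65 (1.37 to 1.93). Krt18 was at 2.13, 10.1, 12.2 and 7.85 CPM, against 0, 7.43, 10.9 and 6.73 in leukocytes, and the 2 intervals overlapped in every library. After subtraction of the leukocyte level its day 7 to sham log2 ratio was -0.48. Krt19 in proximal tubule was at 4.49 CPM on day 7 (7 UMIs), also near the leukocyte 3.69.

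Within the day 7 proximal tubule gate, Krt8 was higher in cells with a UMI of Havcr1, which encodes the injury marker KIM-1. The 76 cells with Havcr1 had 158 CPM of Krt8 and the 153 without had 54.6, which is above the sham level of 32.2. On day 2 the values were closer, 75.7 CPM in 139 cells and 60.7 in 459. Median depths were 9136 against 4339 UMIs on day 7 and 5988 against 4229 on day 2. Krt18 stood at 20.4 CPM with Havcr1 and 4.86 without on day 7.

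Krt20 was rare and was not found in the collecting duct gates. It had 2, 8, 38 and 11 UMIs in gated tubule cells of sham, day 2, day 7 and reversed, and 0 UMIs in every library among principal and intercalated cells, where the floor of 3 counts was 2.21 to 8.47 CPM. Proximal tubule held 2, 7, 16 and 5 of these UMIs (0.213, 2.14, 10.3 and 0.801 CPM). Thin limb was at 13.1 CPM on day 7 (4.26 to 30.6, 5 UMIs). The day 7 proximal tubule value rested on few cells, since 10 of the 16 UMIs were in 1 cell and the level without it was 3.85 CPM. A single day 7 tubule cell without a segment held 14 more. Of the 14 day 7 tubule cells with a Krt20 UMI, 11 also had Havcr1 (78.6%), against 17.9% of the other tubule cells, and the Krt20 cells were deeper (median 16293 against 7267 UMIs). On day 2 the shares were 75% of 8 cells and 16.5%, at closer depths (6486 and 6150). After reversal 2 of 7 Krt20 cells had Havcr1, against 2.04% of the others. Day 7 leukocytes held 8 Krt20 UMIs in 2459 cells (0.509 CPM).

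Krt5 was confined to 5 cells of the 4 libraries, none of them in sham. On day 2 it had 2 UMIs in 1 cell gated as urothelium, which also held 36 UMIs of Krt15, another basal keratin, and 43 of Krt19. On day 7 all 23 UMIs were in 1 cell gated as collecting duct principal, with 74 UMIs of Krt15, 8 of Krt14, 46 of Krt19, 7 of Aqp3 and 0 of Aqp2. The reversed library had 11 Krt5 UMIs in a urothelium-gated cell with 3 UMIs of Trp63, 6 in a principal-gated cell with 36 UMIs of Krt15, 19 of Krt14, 5 of Aqp3 and 0 of Aqp2, and 1 in a leukocyte. The segment calls of Krt5 therefore describe single cells that carried basal keratins and no Aqp2. The urothelium-gated day 2 cell held 16.0% of all Krt19 UMIs of its library, outside the tubule sums.

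**Figure D3:**
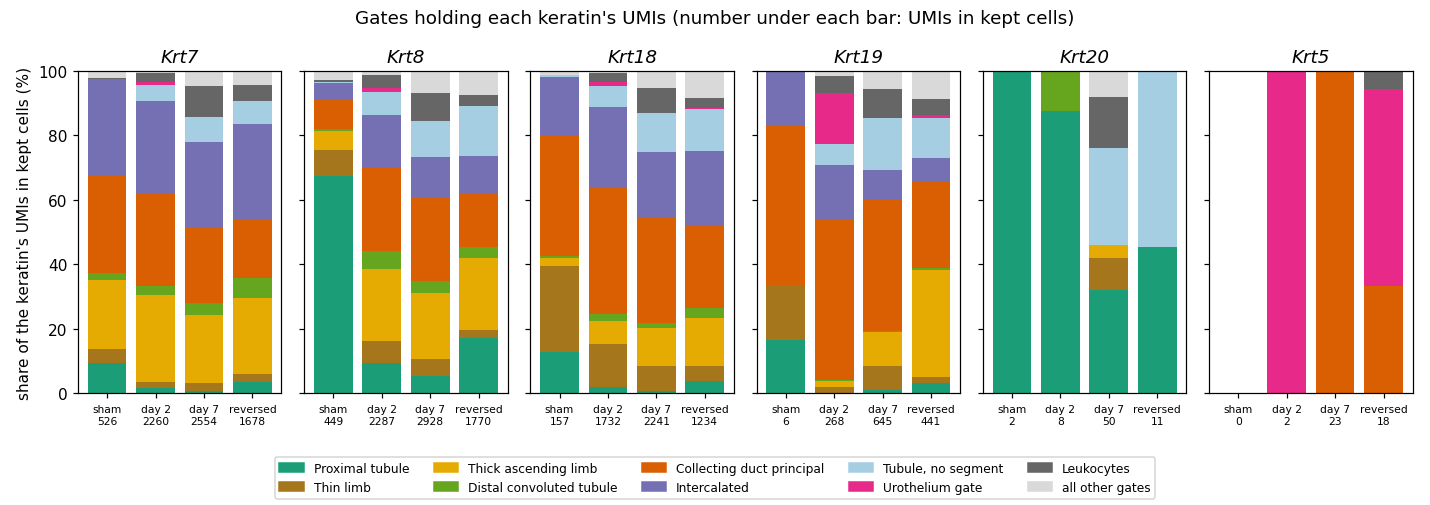
Share of each keratin's UMIs in kept cells (vertical axis, %) that lay in each gate, by library; the number under a bar is the UMI count. Krt8 UMIs lay mostly in proximal tubule in sham, whereas Krt20 had no UMI in principal or intercalated cells and Krt5 UMIs lay in 0 to 3 cells per library.

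Because Aqp2 was missing from part of the later principal gate, the keratins were read with and without it. On day 7 the 85 cells with an Aqp2 UMI had 638 CPM of Krt8, 703 of Krt18, 199 of Krt19 and 599.9 of Krt7. The 45 cells without had 934, 734, 351 and 564 CPM, and the Krt5 cell held 46 of their 137 Krt19 UMIs. After reversal 47 cells with Aqp2 had 428, 493, 148 and 505 CPM and 24 without had 664, 635, 318 and 514. The levels in Aqp2 cells alone were thus still several times those of sham (117, 168 and 8.56 CPM of Krt8, Krt18 and Krt19). Krt8 was higher without Aqp2 in both libraries with intervals apart. Krt19 was higher after reversal with intervals apart, but on day 7, with the Krt5 cell left out (an alternative chosen after seeing the data), the cells without Aqp2 had 241 CPM (194 to 296), which overlapped the 199 (166 to 237) of cells with it. The 6 urothelium genes were near 0 in the principal gate, with Upk3a at 0 UMIs in all libraries and Trp63 at 2 to 5 UMIs.

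In the reversed library most keratin levels were below those of day 7 and above those of sham. Over all gated tubule cells all 6 keratins were lower by 2-fold or more in the reversed library than on day 7, against 4.58% of genes. Within segments 9 of 28 pairs with a UMI were lower, against 11.7% of such pairs of all genes, and 1 was higher, against 10.3%. With segments weighted equally only 1 of the 6 was lower by 2-fold, and with cells over 20% mitochondrial UMIs left out 2 were. Proximal tubule, where these keratins are low, made up 229 of 853 gated cells on day 7 and 1107 of 1675 after reversal.

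In principal cells the reversed to day 7 log2 ratio was -0.59 (-0.79 to -0.40) for Krt8, -0.42 (-0.61 to -0.23) for Krt18 and -0.38 (-0.70 to -0.06) for Krt19. Intercalated cells gave -0.72, -0.58 and -0.69 for the same genes. These are lower levels, but none passed 2-fold. Proximal tubule Krt8 did, at -1.07 (-1.35 to -0.79), as did Krt8 (-1.47), Krt18 (-1.44) and Krt19 (-2.15) in thin limb and Krt8 in distal convoluted tubule (-1.48). The day 7 Krt19 UMIs lay in few cells. In principal cells the Krt5 cell held 46 of 263. At least 50% were in 3 of 129 intercalated cells (58 UMIs) and in 2 of 40 thin limb cells (48 UMIs). Krt19 ratios without these cells are not given, so the lower Krt19 values may rest on them.

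Compared with sham, 4 of 6 keratins were still higher by 2-fold after reversal over all gated tubule cells, against 17.1% of genes, and 17 of 26 pairs with a UMI were, against 24.9% of such pairs of all genes. Krt8 in principal cells had a reversed to sham log2 ratio of 2.10 (1.63 to 2.60) and Krt18 of 1.68 (1.28 to 2.10). In thick ascending limb they were 2.67 (2.11 to 3.28) and 4.10 (2.86 to 5.51). Krt8 and Krt18 in thin limb were at sham levels within counting error (-0.25, -0.90 to 0.41, and -0.27, -0.88 to 0.34). Krt8 in intercalated cells, at 1.5 (0.88 to 2.17), turned to -0.66 when every cell was thinned to 1000 UMIs, a depth at which 3.74% of reversed and 8.89% of sham cells had a UMI.

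Krt19 in thick ascending limb was the 1 pair higher by 2-fold after reversal than on day 7. It had 0 UMIs in 186 sham cells, 5 in 279 day 2 cells, 68 in 191 day 7 cells and 145 in 245 reversed cells, or 0, 2.08, 36.3 and 88.2 CPM. The reversed to day 7 log2 ratio was 1.26 (0.84 to 1.68), and against a floor of 3 counts in sham (4.25 CPM) the level was at least 8.55-fold higher on day 7 and at least 20.8-fold higher after reversal. The share of cells with a UMI was 17.1% after reversal (5.31% thinned) against 2.29% of leukocytes (0.229% thinned), at median depths of 6092 and 5049. Few cells carried it, since 6 of the 245 cells held at least 50% of the UMIs and 1 cell held 29 of them. Without that cell the level was 70.6 CPM, above the 36.3 of day 7. With 1 more marker required for the gate the ratio was 0.65, and under the other alternatives it was 1.08 to 1.85.

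Reversed cells of the gate with a UMI of Slc12a1, the salt transporter of that segment, had 67.0 CPM of Krt19 (53.7 to 82.5, 199 cells), and the 46 without had 173 (131 to 224). On day 7 the values were 40.4 and 23.8 CPM, with overlapping intervals. Median depths were 5767 and 6812.5 UMIs after reversal and 9457.5 and 8018 on day 7. Cells with Slc12a1 alone thus gave intervals that were apart between day 7 (30.6 to 52.3) and reversed. The side of this split that held the reversed cell with most Krt19 UMIs is not given, so either reversed level may rest on it. Over the same interval Krt8 and Krt18 in the gate had log2 ratios of -0.41 (-0.60 to -0.23) and -0.32 (-0.60 to -0.05). Psca, from the urothelium list, was at 3.74 CPM on day 7 and 15.8 after reversal in this gate (7 and 26 UMIs), and its part in the Krt19 level was not tested.

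The balance of Krt8 and Krt18 differed between segments, and in some segments between libraries. Krt8 made up 93.8% of their summed UMIs in sham proximal tubule (90.6 to 96.2), and 86.6%, 89.4% and 86.1% later, with the day 2 (81.7 to 90.58) and reversed (82.0 to 89.5) intervals below that of sham. Krt18 levels there overlapped those of leukocytes in every library, and the part of background UMIs in these shares was not tested. In principal cells it made up 41.0% (31.3 to 51.3), 46.3%, 51.2% and 48.2%, and in intercalated cells 45.1%, 46.9%, 44.2% and 41.9%. Thin limb gave 46.2%, 40.2%, 46.9% and 46.5%. These segments stayed between 40.2% and 51.2% in each library. The balance of thick ascending limb went from 86.7% in sham (69.3 to 96.2, 30 UMIs) to 80.2% (77.0 to 83.3) on day 2, 69.3% (66.1 to 72.3) on day 7 and 67.9% (64.0 to 71.7) after reversal. The day 2 and day 7 intervals did not overlap. Distal convoluted tubule gave 75% in sham (19.4 to 99.4, from 3 and 1 UMIs). It gave 76.6% (68.7 to 83.4) on day 7 and 61.9% (51.4 to 71.5) after reversal, with overlapping intervals. All values are 95% Clopper-Pearson intervals on UMIs, and UMIs of 1 gene cannot be compared with another per length in 3′ data without assuming equal capture.

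**Figure D4:**
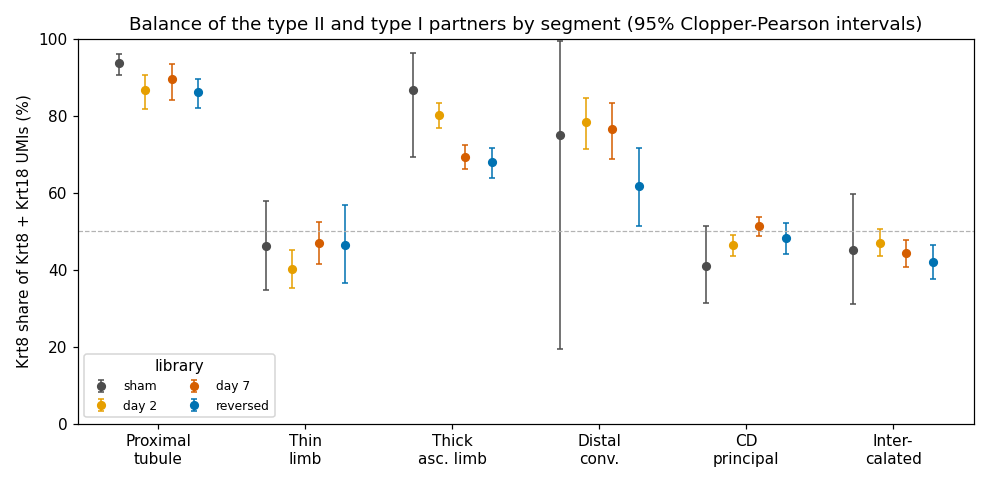
Krt8 as a share of Krt8 plus Krt18 UMIs (vertical axis, %) in each segment and library; points are sums over cells and bars 95% Clopper-Pearson intervals. Proximal tubule lies at 86.1% to 93.8%, principal and intercalated cells lie at 41.0% to 51.2%, and thick ascending limb goes from 86.7% in sham to 67.9% after reversal.

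The partners were often found in the same principal cells. Of day 2 principal cells with a Krt8 UMI, 67 of 74 (90.5%) also had Krt18, against 4 of 6 cells without Krt8. On day 7 the counts were 98 of 109 (89.9%) and 8 of 21 (38.1%). Among thick ascending limb cells with Krt8 the share with Krt18 was 0 of 23 in sham and then 31.7%, 54.1% and 53.4% in day 2, day 7 and reversed, and among cells without Krt8 it was 1.84%, 9.82%, 20.7% and 11.6%. Deeper cells give more of both genes, so these shares describe detection. With each day 7 cell thinned to 1000 UMIs, 25 of 47 principal cells with Krt8 had Krt18, against 30 of 83 without, and in thick ascending limb 7 of 43 against 15 of 148. In proximal tubule 14.1% of day 7 Krt8 cells had Krt18, against 4.43% of the others, but after thinning 0 of 14 did, against 5 of 215.

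Type II UMIs (Krt5, Krt7 and Krt8) outnumbered type I UMIs (Krt18, Krt19 and Krt20) in every segment and library but thin limb on days 2 and 7. In principal cells the type II share was 76.3% in sham and 60.3%, 58.3% and 58.1% in the later libraries. In intercalated cells it was 86.1% in sham and 68.4%, 66.8% and 69% later. In thick ascending limb it was 97.2%, 89.5%, 77.2% and 70.4%. The type I share was thus larger in each later library than in sham in each of these segments. In their sham cells Krt7 supplied most of these UMIs.

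Genes whose levels followed those of the keratins were sought over the 23 segment by library units of at least 30 cells, among 5789 genes. Krt7 was most like Mal2 (Pearson r of log2 levels 0.97), a sorting protein of apical membranes, Casz1 (0.95) and Cd9 (0.95). Krt18 was most like Cldn4 (0.96), a tight junction claudin of the distal nephron, Elf3 (0.94), an epithelial transcription factor, and Fam3c (0.94). Krt8 was most like Arpc3 (0.90), a subunit of the actin-branching complex, Krt18 (0.90) and Marcksl1 (0.89). Krt19 was most like Krt8 (0.88), Ly6e (0.88) and Krt18 (0.86). Krt7 and Krt8 gave 0.65. The units share libraries and depth, and these values are descriptions.

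Genes that keratins attach to or accompany were read as lists. Of the 12 desmosome and linker genes listed in the files, all 12 had 30 or more UMIs in tubule cells, and 8 were higher by 2-fold on day 2 than in sham over all gated tubule cells (20.9% of genes of that depth). The list's median log2 ratio was 1.28 and that of all such genes 0.50. Within the segments counted here fewer of its genes passed 2-fold. In thick ascending limb 2 of 9 measured genes were higher (Dsp and Plec, against 9.94% of genes). In principal cells 0 of 9 were (12.5%) and in intercalated cells 0 of 7 (10.8%). Proximal tubule and thin limb are left out of this count. Dst, which encodes the cytoskeletal linker dystonin, was the 1 gene of the 9 lower by 2-fold in thick ascending limb (445 CPM in sham and 167 on day 2, against 4.95% of genes lower) and in principal cells (155 and 66.8, against 4.38%). Plec, which links keratin filaments to the membrane, was at 9.91, 66.3, 89.7 and 94.9 CPM in thick ascending limb, and Jup, or plakoglobin, at 55.2, 92.5, 113 and 96.7. In principal cells Jup was at 132, 177, 163 and 139 CPM while Krt8 went from 116 to 718.

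Other filament genes were read in the same gates. Vim had 0 UMIs in sham thick ascending limb and 15.8, 38.5 and 22.5 CPM later. The summed leukocyte panel in that gate was at 39.6, 433, 1762 and 690 CPM in the same order, and its part in the Vim level was not tested. Lmna, which encodes a nuclear lamin, had 22.7, 58.8, 70 and 74.8 CPM there. In principal cells Lmna went from 36.6 to 103, 94.0 and 76.1 CPM, but in distal convoluted tubule it was at 68.3 in sham, 67.4 on day 7 and 60.5 after reversal. Of 12 other keratins, 4 had more than 22 UMIs in gated tubule cells: Krt10 (987), Krt23 (228), Krt15 (121) and Krt14 (29). Krt10 did not follow the members, at 30.4, 21.2, 24.6 and 26.2 CPM over all gated tubule cells. Krt23 was at 1.70, 8.58, 10.5 and 5.35 CPM over the same cells. Within principal cells it was at 22.5, 19.4, 28.4 and 23.7 CPM, and in intercalated cells at 19.8, 7.37, 28.5 and 18.95. Thin limb had 19.1, 87.3, 18.3 and 58.4 CPM. The mix of segments differed between libraries, and its part in the summed Krt23 values was not tested. Of the Krt15 UMIs in principal cells on day 7, all 74 were in the cell that held Krt5.

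Of 9 tubule injury genes, 8 were higher by 2-fold on day 2 over all gated tubule cells, against 20.9% of genes of that depth, and the list's median log2 ratio was 3.91. All 9 were higher after reversal than in sham, against 21.4% of genes of that depth, with a median of 2.88. In principal cells Lcn2, an iron-binding injury protein, was at 98.6, 3947, 1580 and 1448 CPM, and Spp1, or osteopontin, at 2046, 12891, 7978 and 5040. Lcn2 was thus highest on day 2 there, as Krt18 was. The injury list was chosen with these data known and gives no independent support.

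Outside the tubule, day 7 leukocytes held 255 Krt8 and 244 Krt7 UMIs over 2459 cells (16.2 and 15.5 CPM). Endothelial cells of the reversed library had 56.0 CPM of Krt8 and 49.9 of Krt18, but 2 of 351 cells held 78 of 92 and 73 of 82 of the UMIs. Both also carried general tubule panel UMIs (34 and 15), and without them the levels were 8.71 and 5.60 CPM, near those of leukocytes (10.7 and 6.73). Tubule cells that met no segment panel had 501, 411 and 486 CPM of Krt8 on day 2, day 7 and after reversal (43, 101 and 71 cells), against 718, 751 and 497 in principal cells. In the reversed library 122 of their 273 Krt8 UMIs were in 1 cell.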

How the data were processed

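The deposited values are raw UMI counts in a gene by cell matrix for each of 4 droplet libraries, which the authors made with Cell Ranger and STAR on GRCm38 (mm10), per the submitters' processing notes. Versions, annotation and cell calling are not given in the sources used here. A further sample of plate wells with mixed time points was not used here.

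Kept cells had 200 genes or more and no more than 50% mitochondrial UMIs, and the highest Scrublet scores (scanpy 1.11.5) were removed as likely doublets at 0.8% per 1000 deposited cells (187, 48, 160 and 96 cells). A cell entered a gate with at least 2 panel markers, a log-likelihood excess of at least 8 and a level at least 3 times that of reference cells of its library (leukocytes for tubule panels, tubule cells for the others). Cells whose best segment and best other panel both reached 8, the weaker at 0.33 or more of the stronger, were set aside as mixed. Gate thresholds were set after the counts had been seen. A tubule cell that met no segment panel needed the general tubule panel. Counts were summed per class and library and given as CPM with a pseudocount of 1 CPM in ratios, which understates changes of low genes. Classes needed 30 cells in both libraries, or 10 under the alternatives. Where UMIs were 0 the floor was 3 counts per class and library. Total UMIs deposited per library ranged from 18649637 to 30462683.

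With 1 library per group no p-value was computed. The steps were tested on simulated data. Members and lists were chosen with earlier results of these data known. Named genes were the members, the list members with most UMIs (with the injury, linker and urothelium genes that a result needed named after their values were seen) and the 3 genes most alike. Alternatives covered filters, doublets, gates, depth, weighting, background, pseudocount and scaling (edgeR 4.0.16 TMM in R 4.3.3). Figures used matplotlib 3.10.9, and sums and intervals used scipy 1.17.1, pandas 2.3.3 and numpy 2.4.6 in Python 3.11.15.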

Additional observations from a re-analysis of the deposited data

Results flagged for a closer look

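The level of 3 keratins moved in opposite directions in different segments of the same pair of libraries, with each 95% counting interval away from 0. The difference itself was not tested, since each group is 1 library. From day 2 to day 7 the log2 ratio of Krt7 was 1.11 in thin limb, 0.17 in thick ascending limb and 0.26 in intercalated cells, and -0.43 in principal cells. Over the same days Krt18 gave 1.40 in thick ascending limb and 0.29 in intercalated cells, and -0.22 in principal cells. From day 7 to the reversed library Krt19 gave 1.26 in thick ascending limb, and -2.15 in thin limb, -0.38 in principal cells and -0.69 in intercalated cells. These Krt19 values rest on few cells. In day 7 principal cells the Krt5 cell held 46 of 263 Krt19 UMIs. At least 50% of the Krt19 UMIs lay in 2 of 40 day 7 thin limb cells, 3 of 129 day 7 intercalated cells and 6 of 245 reversed thick ascending limb cells. Whether the directions stay opposite without those cells is not given.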

How the results depend on the processing

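No paired analysis was possible because each group was a single library. Counts of keratins past 2-fold were recomputed under 14 other settings, 2 of them chosen after seeing the data, and those not listed here stayed within 1.5 times. Day 7 over day 2, higher in all gated tubule cells (3): 1 with a pseudocount of 10 CPM. Higher pairs in that comparison (9): 5 without the top cell of each keratin and 4 without sums under 30 UMIs. Reversed below day 7 in all gated tubule cells (6): 2 at no more than 20% mitochondrial UMIs, 1 with segments weighted equally and 3 with a pseudocount of 10 CPM. Lower pairs there (9): 5 with that pseudocount and 5 without sums under 30 UMIs. The higher pair there (1) became 0 with 1 more marker per gate. With the leukocyte level subtracted, 1 pair was lower in day 7 over day 2, in reversed over sham and in day 7 over sham, where 0 had been. Some ratios past 2-fold turned sign. After that subtraction, in proximal tubule, these were Krt18 (-0.56) and Krt19 (-0.15) in reversed over sham. In day 7 over sham they were Krt7 (-1.68) and Krt18 (-0.48) in the same segment. In thinned cells they were Krt7 in proximal tubule, day 7 over sham (-0.28), and Krt8 in intercalated cells, reversed over sham (-0.66). With 1 more marker it was Krt19 in thin limb, reversed over sham (-0.11). Ratios under 2-fold that turned sign are not listed, such as Krt7 in intercalated cells, day 2 over sham, at no more than 20% mitochondrial UMIs. The cause was not tested. Of 95 ratios past 2-fold, 70 stayed so with a pseudocount of 10 CPM, 78 in thinned cells, 80 without the top cell, 84 with the leukocyte level subtracted, 86 with TMM scaling and 91 with mitochondrial UMIs left out of the total. At no more than 20% mitochondrial UMIs 74 of 86 stayed so, and 73 of 144 ratios moved outside their counting interval. With segments weighted equally 15 of 23 stayed so and 22 of 29 moved. Depth limits Krt5, Krt20 and sham Krt19, which rest on few UMIs.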
